A study of Mus musculus with 6 samples.

Results

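Leydig cells are the testosterone-producing cells between the seminiferous tubules of the testis. The genes described here are 10 in number and were chosen for their place in this cell type: Star, Cyp11a1, Cyp17a1, Hsd3b1, Hsd3b6 and Hsd17b3 of testosterone synthesis, the hormone gene Insl3, the luteinizing hormone receptor gene Lhcgr, the transcription factor gene Nr5a1, and the estrogen sulfotransferase gene Sult1e1. Every probe set annotated to 1 of these genes alone was read, which gave 12 of the 45037 probe sets tested and covered 7 of the 10 genes. Hsd3b6 and Insl3 were matched only by probe sets shared with other genes (1 and 2 of them) and Lhcgr by none named here, so these 3 genes have no value below. The list was chosen by the genes' roles and with the measured difference between the genotypes on these arrays known, above all that of Sult1e1. The differences of these genes are therefore given as a description. Where the fit's calls on them are counted or named, nothing is read from them as evidence, because the choice used the same contrast.

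The samples were freshly dissected testes of adult mice, 3 of them DREAM transgenic and 3 wild type, all of a C57BL/6 x CBA hybrid background, with 1 array a sample. The transgenic mice carried a constitutively active mutant of DREAM, the calcium-binding transcriptional repressor encoded by Kcnip3. The promoter that drives the transgene and the cell types that express it are not given in the sources used here, so whether Leydig cells carried it is not known. The values are log2 intensities after RMA, a normalization that brings all arrays to a near-common distribution, and a low value is not shown to lie above background.

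The steroid pathway starts from cholesterol. Steroidogenic acute regulatory protein (Star) carries it to the inner mitochondrial membrane, Cyp11a1 cuts its side chain to give pregnenolone, and Cyp17a1 and the 3-beta-hydroxysteroid dehydrogenases turn this into androstenedione, which Hsd17b3 reduces to testosterone. Luteinizing hormone drives the pathway through Lhcgr and cyclic AMP, and Nr5a1 (steroidogenic factor 1) activates the genes of most of the steps. Sult1e1 transfers a sulfate group to estrogens, which then no longer bind their receptors, and in the mouse testis it is known as a Leydig cell enzyme.

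The 7 genes did not differ alike between the genotypes. Sult1e1, Hsd3b1 and Hsd17b3 were higher in transgenic testis, by 3.91-fold, 2.80-fold and 1.88-fold in intensity, and no array of either genotype fell in the range of the other. Star, Cyp11a1, Cyp17a1 and Nr5a1 overlapped between the genotypes with each of their 9 probe sets, and 8 of the 12 probe sets in all differed by less than 0.20 on the log2 scale. The groups did not overlap with 3 of the 12 probe sets, all higher, where 11.3% of all probe sets did not overlap in either direction. An adjusted p under 0.05 in the fit across all probe sets (limma, Benjamini-Hochberg) was reached by 2 of the 12, those of Sult1e1 and Hsd3b1, against 0.444% of all probe sets. The median difference was 0.12 over the 12 probe sets and 0.02 over all 45037. In whole testis RNA, fewer cells of a type and less RNA per cell cannot be told apart, and this holds for every level below.

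**Figure D1:**
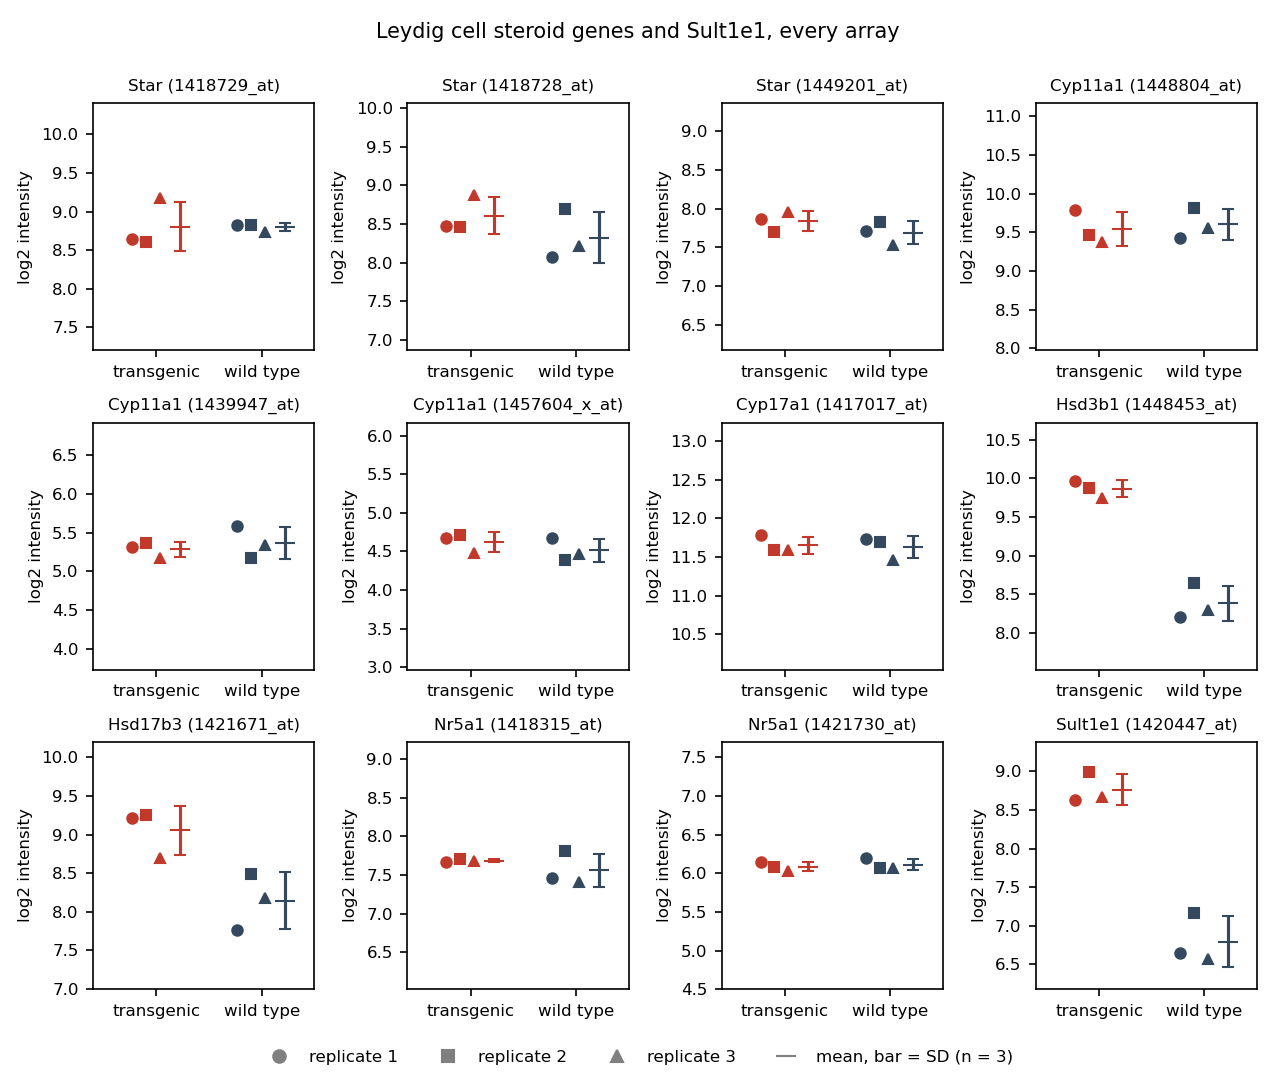
Log2 intensity of each of the 12 probe sets on every array, with transgenic (red, left) and wild-type (dark, right) replicates as points by replicate number and the mean ± SD (n = 3) beside them; every panel spans the same number of log2 units. The genotypes are apart with Hsd3b1, Hsd17b3 and Sult1e1 and overlap in the other 9 panels.

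Sult1e1, on chromosome 5, was read by 1 probe set (1420447_at). It gave 8.63, 8.99 and 8.67 in transgenic replicates 1, 2 and 3, against 6.65, 7.17 and 6.57 in wild-type replicates 1, 2 and 3 (log2 intensity). All 3 transgenic arrays lay above all 3 wild-type arrays, and replicate 2 was the highest in both groups. The means were 8.76 ± 0.20 in transgenic and 6.80 ± 0.33 in wild-type testis (SD, n = 3 each), a difference of 1.97 (SE 0.17). In size this was the 12th largest difference of all 45037 probe sets. Leaving out any 1 of the 6 arrays gave differences between 1.85 and 2.15.

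Hsd3b1, on chromosome 3, encodes a 3-beta-hydroxysteroid dehydrogenase of gonads and adrenal in the mouse, and was read by 1 probe set (1448453_at). It gave 9.97, 9.87 and 9.75 in transgenic replicates 1, 2 and 3, against 8.20, 8.64 and 8.30 in wild-type replicates 1, 2 and 3. The lowest transgenic array stood well above the highest wild-type array, which was replicate 2. The means were 9.86 ± 0.11 in transgenic and 8.38 ± 0.23 in wild-type testis (SD, n = 3 each), a difference of 1.48 (SE 0.13) that ran from 1.39 to 1.61 with 1 array left out. It ranked 34th in size over all probe sets. Hsd3b1 lies among its paralogues, which are close in sequence, and its only probe set is not one of the classes whose names mark a match to several transcripts. A share of Hsd3b6 in this signal was not tested, since that paralogue had no probe set of its own here.

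Hsd17b3, on chromosome 13, encodes the testicular enzyme that makes testosterone from androstenedione. Its probe set (1421671_at) gave 9.22, 9.25 and 8.69 in transgenic replicates 1, 2 and 3, against 7.76, 8.49 and 8.18 in wild-type replicates 1, 2 and 3. The groups did not overlap, but only 0.20 separated transgenic replicate 3 from wild-type replicate 2, and both groups were widely spread. The means were 9.05 ± 0.32 in transgenic and 8.14 ± 0.37 in wild-type testis (SD, n = 3 each), a difference of 0.91 (SE 0.20) that did not reach an adjusted p under 0.05 with all arrays and did without wild type replicate 2, where it was 1.08. It ranked 109th in size over all probe sets.

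The upstream sequences of these 3 genes are shown because they are the ones whose intensities stood apart, and they let the NR5A1 half-site be looked up where the differences lie. RefSeq sequences of assembly GRCm38.p6 were at hand for 8 promoters of 7 of the 10 genes, each reaching 250 bases before and 50 after the annotated start. The 250 bases before the start are printed 5′ to 3′ on the gene's strand, in lower case, with capitals for a motif match.
Sult1e1, chr5:87591612-87591861, minus strand: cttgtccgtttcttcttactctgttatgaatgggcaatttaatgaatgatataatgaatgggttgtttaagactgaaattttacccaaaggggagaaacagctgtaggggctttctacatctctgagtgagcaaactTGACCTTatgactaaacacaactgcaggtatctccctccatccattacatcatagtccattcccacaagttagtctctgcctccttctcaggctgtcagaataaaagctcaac
Hsd3b1, chr3:98859795-98860044, minus strand: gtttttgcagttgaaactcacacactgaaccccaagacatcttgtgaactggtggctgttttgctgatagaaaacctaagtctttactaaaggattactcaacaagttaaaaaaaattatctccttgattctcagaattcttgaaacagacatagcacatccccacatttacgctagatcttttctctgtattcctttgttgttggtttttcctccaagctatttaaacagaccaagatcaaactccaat
Hsd17b3, chr13:64089202-64089451, minus strand: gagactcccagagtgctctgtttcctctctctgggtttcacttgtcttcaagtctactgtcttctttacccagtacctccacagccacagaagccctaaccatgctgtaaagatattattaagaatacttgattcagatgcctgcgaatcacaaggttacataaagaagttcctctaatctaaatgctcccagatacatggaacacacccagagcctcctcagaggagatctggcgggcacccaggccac
Each motif was searched on both strands of the whole windows, and those of Hsd3b1 and Hsd17b3 held no match. The NR5A1 half-site AAGGTCA was found in 1 of the 8 promoters, that of Sult1e1, where it lies on the opposite strand and reads TGACCTT, from 113 to 107 bases before the start. It occurs in 4.72% of all 32851 promoter windows of the same length. GTCAAGG, a form of the element bound by DREAM, occurs in 3.18% of all windows and was found among the 8 only in that of Lhcgr, from 120 to 114 bases before the start. The cAMP response element TGACGTCA and the TATA box TATAAA were found in none of the 8 (1.79% and 13.6% of all windows). AAGGTCA and GTCAAGG share the letters GTCA, as does the cAMP response element. A match is a description of the letters and no match says only that these letters are not in the window.

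The first steps of the pathway showed no such separation. Star, on chromosome 8, was read by 3 probe sets. The brightest (1418729_at) gave 8.64, 8.61 and 9.17 in transgenic replicates 1, 2 and 3, against 8.83, 8.83 and 8.74 in wild-type replicates 1, 2 and 3, a difference of 0.01 (SE 0.15). The second (1418728_at) gave 8.47, 8.46 and 8.88 in transgenic against 8.07, 8.69 and 8.21 in wild-type replicates, a difference of 0.28 (SE 0.17). Transgenic replicate 3 was the highest transgenic array with both, and also with the dimmest (1449201_at), which gave 7.87, 7.70 and 7.96 in transgenic against 7.71, 7.83 and 7.53 in wild-type replicates, a difference of 0.15 (SE 0.11).

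Cyp11a1, on chromosome 9, was read by 3 probe sets whose means over all arrays ran from 4.57 to 9.57. The brightest (1448804_at) gave 9.79, 9.46 and 9.37 in transgenic replicates 1, 2 and 3, against 9.43, 9.82 and 9.56 in wild-type replicates 1, 2 and 3. The arrays of the genotypes were mixed in order, with a difference of -0.06 (SE 0.14). The others, with means from 4.51 to 5.37 in the groups, differed by -0.08 (SE 0.12, 1439947_at) and 0.11 (SE 0.11, 1457604_x_at).

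Cyp17a1, on chromosome 19, encodes the enzyme with hydroxylase and lyase activity that commits steroids to androgens. Its probe set (1417017_at) gave 11.78, 11.59 and 11.59 in transgenic replicates 1, 2 and 3, against 11.73, 11.69 and 11.46 in wild-type replicates 1, 2 and 3. The groups overlapped nearly in full, with means of 11.65 ± 0.11 in transgenic and 11.63 ± 0.15 in wild-type testis (SD, n = 3 each) and a difference of 0.03 (SE 0.11).

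Nr5a1, on chromosome 2, was read by 2 probe sets. The brighter (1418315_at) gave 7.67, 7.71 and 7.68 in transgenic replicates 1, 2 and 3, against 7.46, 7.81 and 7.41 in wild-type replicates 1, 2 and 3. The transgenic arrays lay within 0.04 of each other and between wild-type arrays, a difference of 0.13 (SE 0.12). The dimmer (1421730_at) differed by -0.03 (SE 0.09).

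**Figure D2:**
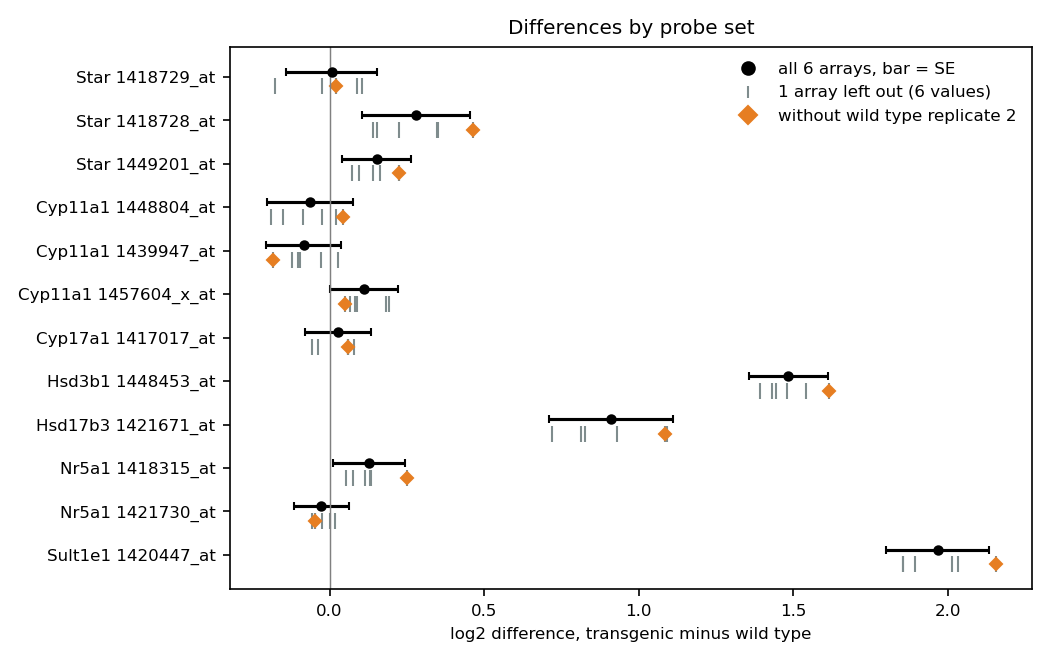
Log2 difference, transgenic minus wild type, of each of the 12 probe sets: black points with bars are the difference with all 6 arrays and its SE, grey ticks the 6 values with 1 array left out, and orange diamonds the value without wild type replicate 2. Sult1e1 (1.97), Hsd3b1 (1.48) and Hsd17b3 (0.91) stay above 0 in every such value, and the other 9 run from -0.08 to 0.28 with all arrays, the highest being Star with 1418728_at (0.14 to 0.46 with 1 array left out).

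Some arrays stood to one side of their group across these genes. Wild type replicate 2, which the first principal component of all probe sets sets apart (42.2, against -23.3 to 5.27 for the other 5 arrays), was above its group mean with 9 of the 12 probe sets, by a median of 0.18. It was the highest wild-type array with Sult1e1, Hsd3b1, Hsd17b3, the brightest probe set of Cyp11a1, the brighter one of Nr5a1 and the dimmer 2 of Star. Without it the difference was 2.15 for Sult1e1, 1.61 for Hsd3b1, 1.08 for Hsd17b3, 0.46 for Star with 1418728_at and 0.06 for Cyp17a1. Wild type replicate 3 was below its group mean with 11 of the 12, by a median of -0.07. Transgenic replicate 3 was below its group mean with 9 of the 12, the 3 probe sets of Star being the ones above it. Deviations within a group sum to 0, so 1 high array sets the others of its group lower. The median SD of the 12 probe sets was 0.13 in transgenic and 0.20 in wild-type testis, where that of all probe sets was 0.11 in transgenic and 0.13 in wild-type testis.

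The 3′ minus 5′ difference of the Gapdh controls, which grows as RNA is less intact, was larger on the transgenic arrays. The Gapdh control probe sets at the 3′ end read higher than those at the 5′ end by 0.21, 0.26 and 0.33 in transgenic replicates 1, 2 and 3, against 0.16, 0.06 and 0.11 in wild-type replicates 1, 2 and 3 (log2). When this value entered the fit as a covariate, a choice made once the data had been seen, the difference between genotypes was 2.30 (SE 0.31) for Sult1e1, 1.93 (SE 0.19) for Hsd3b1 and 1.81 (SE 0.21) for Hsd17b3. In that fit Sult1e1 no longer reached an adjusted p under 0.05, Hsd3b1 did, and Hsd17b3 came to do so. The same fit gave 0.50 (SE 0.18) for Cyp11a1 and -0.42 (SE 0.24) for Star with their brightest probe sets. The covariate's values do not overlap between the genotypes, and the part of RNA integrity in these values was not tested.

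By a root-mean-square difference over the 6 arrays, after each probe set's own mean was subtracted, the profile most like that of Sult1e1 was Serpina3a (0.18), an antichymotrypsin-type protease inhibitor gene, followed by Serpina1c (0.29), an alpha-1-antitrypsin gene, and 1700104B16Rik (0.33). Serpina3a gave 10.79, 10.81 and 10.72 in transgenic replicates, against 8.85, 9.05 and 8.91 in wild-type replicates. Those most like Hsd3b1 were 1700104B16Rik (0.11), Tspan18 (0.16), which encodes a tetraspanin, and Serpina3a (0.20). For scale, Sult1e1 itself deviated from its own mean by 1.01 and Hsd3b1 by 0.76 by the same measure. Such a ranking favours any gene with a difference of the same size between the genotypes.

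**Figure D3:**
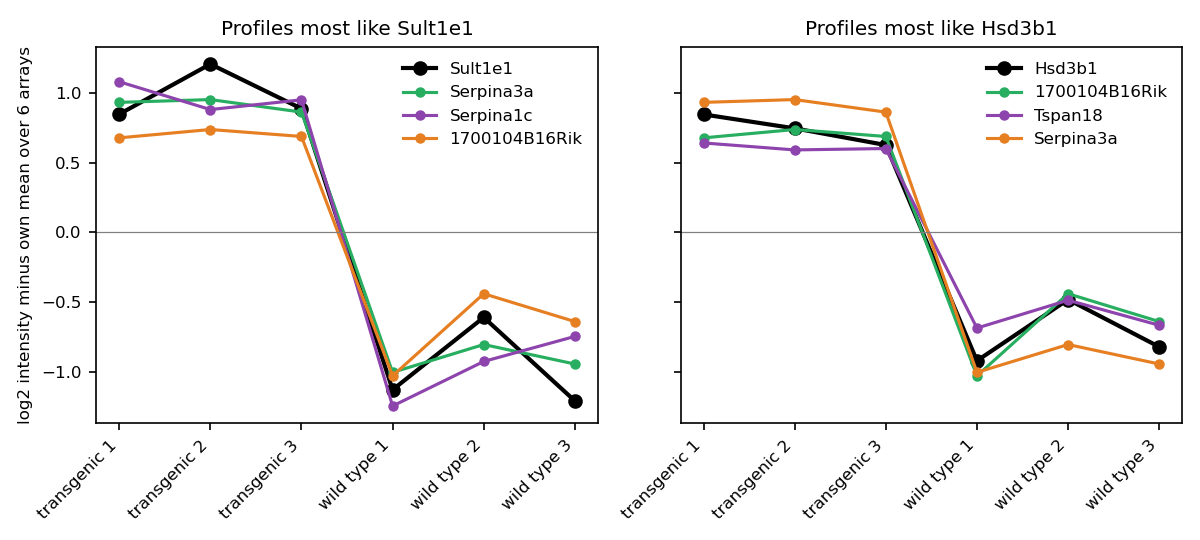
Log2 intensity minus each probe set's own mean over the 6 arrays, by array, for Sult1e1 (left, black) and Hsd3b1 (right, black) and the 3 genes most like each (coloured). All the profiles are above 0 on the transgenic arrays and below 0 on the wild-type arrays, and Serpina3a and 1700104B16Rik stand in both panels.

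Relatives of Hsd3b1 and Sult1e1, and chromosomal neighbours of these genes and of Hsd17b3, were read beside them, where 0.616% of all 18193 genes passed and 7.48% had an unadjusted p under 0.05. Of the other 3-beta-hydroxysteroid dehydrogenase genes, Hsd3b2, Hsd3b3, Hsd3b5 and Hsd3b7 had 5 probe sets of their own, with differences from -0.12 to 0.26, and 0 of them passed (limma, smallest adjusted p = 0.677, 1 with an unadjusted p under 0.05). Hsd3b2 read 3.92 ± 0.10 in transgenic and 3.90 ± 0.12 in wild-type testis (SD, n = 3 each). Of the other cytosolic sulfotransferases, 12 genes with 14 probe sets differed by -0.18 to 0.29, and 0 of them passed (limma, smallest adjusted p = 0.791, 0 with an unadjusted p under 0.05). Sult1d1, next to Sult1e1 on chromosome 5 in the RefSeq order of protein-coding genes, read 3.63 ± 0.16 in transgenic and 3.69 ± 0.06 in wild-type testis (SD, n = 3 each). None of the measured genes within 6 places of Sult1e1, Hsd3b1 or Hsd17b3 in that order passed (limma), 31 genes in all, with differences from -0.28 to 0.31 and 3 of them at an unadjusted p under 0.05. The values of Hsd3b2, Sult1d1 and several other relatives were low and are not shown to lie above background. A lack of difference there says little.

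Outside the 10 genes, 7 lists of the pathway held 134 genes, of which 116 were measured, each by its brightest probe set. None of the 116 passed in either direction (limma, adjusted over all 45037 probe sets), and 15 had an unadjusted p under 0.05, against the shares of 0.616% and 7.48% over all genes. The median difference over the 116 genes was 0.03, against 0.02 over all genes. In the cholesterol supply list, 0 of 13 passed (median 0.02, 1 at an unadjusted p under 0.05), and Acbd3, a Golgi protein that binds the mitochondrial protein Tspo, read -0.29 (SE 0.10, adjusted p = 0.482) and the cholesterol exporter gene Abca1 0.26 (SE 0.15, adjusted p = 0.847).

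Among other steroid-metabolising enzymes and their electron donors, 0 of 24 passed (median 0.07, 18 above 0, 3 at an unadjusted p under 0.05). Cyp21a1, the adrenal 21-hydroxylase, gave 8.07, 8.13 and 8.02 in transgenic replicates, against 7.89, 7.42 and 7.73 in wild-type replicates, a difference of 0.39 (SE 0.12, adjusted p = 0.446). Its other probe set gave 7.06, 7.30 and 6.96 in transgenic against 6.35, 5.87 and 6.59 in wild-type replicates, a difference of 0.84 (SE 0.17, adjusted p = 0.117). With both probe sets the genotypes did not overlap, and neither passed. Hsd17b12, which acts in fatty acid elongation and on steroids, read 0.38 (SE 0.15, adjusted p = 0.658). Hsd17b11, another member of the 17-beta-hydroxysteroid dehydrogenase family, chosen for mention after its values were seen, read -0.02 (SE 0.11, adjusted p = 0.993) with its brightest probe set. A dimmer one gave 6.39, 6.26 and 6.19 in transgenic against 5.36, 5.94 and 5.39 in wild-type replicates, a difference of 0.72 (SE 0.15, adjusted p = 0.128).

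Among genes of luteinizing hormone signalling and Leydig cell transcription, 0 of 19 passed (median 0.01, 0 at an unadjusted p under 0.05). Gata6, a zinc finger transcription factor gene, read 0.17 (SE 0.10, adjusted p = 0.847) and Nr0b2, the gene of a repressive nuclear receptor, 0.22 (SE 0.16, adjusted p = 0.912), which was 0.04 without wild type replicate 2. The range of the whole list was -0.10 to 0.22.

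The other Leydig cell genes spread most, from -0.61 to 0.51, with 0 of 21 passing, a median of 0.03, and 5 higher and 3 lower at an unadjusted p under 0.05. The 3 lower were Klk1b24 (-0.61, SE 0.17), Vcam1 (-0.48, SE 0.12) and Klk1b27 (-0.37, SE 0.12), each with the genotypes apart. They were named after their values were seen. Dimmer probe sets of Vcam1 read 0.17 (SE 0.16) and 0.23 (SE 0.22), with overlap. Ptgds, a prostaglandin D synthase gene, gave 12.04, 12.02 and 12.07 in transgenic replicates 1, 2 and 3, against 11.60, 11.65 and 11.52 in wild-type replicates 1, 2 and 3. The groups were tight and apart, a difference of 0.45 (SE 0.09, adjusted p = 0.0758), and its other probe set differed by 0.46 (SE 0.10, adjusted p = 0.151). Fabp3, a fatty acid-binding protein gene, gave 11.17, 11.25 and 10.95 in transgenic against 10.49, 10.71 and 10.63 in wild-type replicates, a difference of 0.51 (SE 0.11, adjusted p = 0.124). The other probe set of Fabp3, a dimmer one, read 0.05 (SE 0.11, adjusted p = 0.982). The call on Ptgds and Fabp3 turned with the way the variance was moderated (eBayes with trend and robust, adjusted p = 0.00167 for Ptgds and 0.0199 for Fabp3), and Ptgds passed without wild type replicate 2 (adjusted p = 0.0416).

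Among estrogen and androgen receptors, estrogen response and sulfate metabolism, 0 of 17 passed (median 0.03, 3 at an unadjusted p under 0.05). Shbg, the sex hormone-binding globulin gene, read -0.33 (SE 0.11, adjusted p = 0.509) and Bpnt1, which breaks down the spent sulfate donor, 0.37 (SE 0.15, adjusted p = 0.683). Sulfotransferases other than Sult1e1 had a median of -0.06, with Sult4a1 at -0.17 (SE 0.11, adjusted p = 0.880) and Sult1c2 at 0.12 (SE 0.09, adjusted p = 0.922), and 0 of 11 passed or had an unadjusted p under 0.05. Of 11 genes reported to respond to androgen in Sertoli cells, the supporting cells of the tubule, 0 passed or had an unadjusted p under 0.05 (median 0.06). Rhox5, a homeobox gene under androgen control there, read -0.17 (SE 0.10, adjusted p = 0.857), and Tubb3 0.18 (SE 0.14, adjusted p = 0.921).

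**Figure D4:**
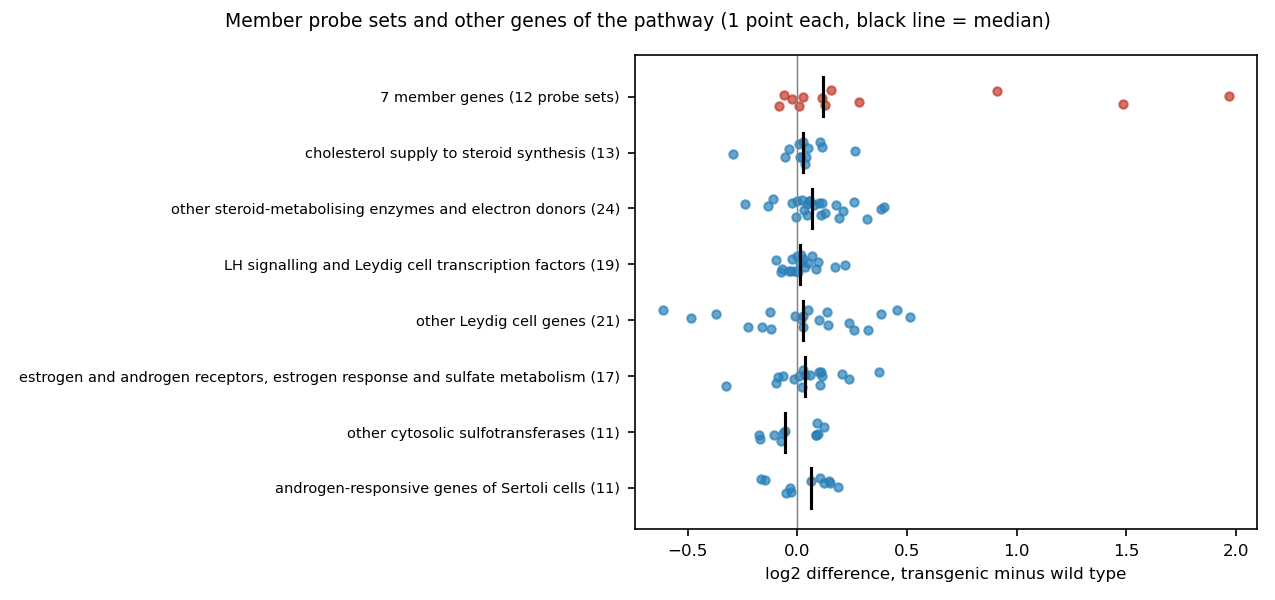
Log2 difference, transgenic minus wild type, of the 12 probe sets of the 7 genes read (top, red) and of 116 other genes in 7 pathway lists (blue, 1 point a gene, number in brackets), with black lines for medians. The 3 rightmost red points lie at 0.91 to 1.97, and the highest point of the lists is Fabp3 at 0.51. The lists are drawn by each gene's brightest probe set only, and the red points by every probe set. Dimmer probe sets of list genes, not drawn, read 0.84 (Cyp21a1) and 0.72 (Hsd17b11).

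Markers of other cell types were read beside these values. Of the macrophage markers 7 of 8 were above 0 (median 0.16, 0 passed, 3 at an unadjusted limma p under 0.05), and their summed linear intensity ran from 1144 to 1209 in transgenic and from 945 to 1088 in wild-type testis, with no overlap. Adrenal cortex markers were above 0 with 4 of 5, summed from 456 to 503 in transgenic and from 335 to 419 in wild-type testis, with no overlap. Their mean log2 intensity, which weighs the 5 genes alike, did overlap. It ran from 5.71 to 5.89 in transgenic and from 5.49 to 5.76 in wild-type testis. Of the adrenal markers, Mrap differed by 0.44 and Cyp21a1 by 0.39, both with the genotypes apart and at an unadjusted limma p under 0.05. Cyp11b1 differed by 0.13, Cyp11b2 by 0.01 and Mc2r by -0.01, and 0 of the 5 passed. Cyp21a1, Cyp11b1 and Mc2r also stand in the pathway lists above, with the same values. Endothelial markers were above 0 with 7 of 8 (median 0.12, 0 passed, 3 at an unadjusted limma p under 0.05). Their sums overlapped, from 593 to 607 in transgenic and from 557 to 621 in wild-type testis. Their mean log2 intensity did not overlap, from 5.86 to 5.90 in transgenic and from 5.69 to 5.80 in wild-type testis. Adipose markers were above 0 with 5 of 5 (median 0.20, 0 passed, 0 at an unadjusted limma p under 0.05). Their sums ran from 476 to 529 in transgenic and from 439 to 466 in wild-type testis, also with no overlap. Taken singly, only 1 of the 5 adipose genes did not overlap. Epididymal markers were above 0 with 6 of 8 (summed, 403 to 447 in transgenic, 414 to 600 in wild-type testis). Of them, 1, Spink8, a protease inhibitor gene, fell by 1.46 (SE 0.20, limma adjusted p = 0.0188). Rnase10, the other epididymal marker below 0, read -0.60 (SE 0.11, adjusted p = 0.0647), also with no overlap, which made 2 of the 8 lower at an unadjusted p under 0.05. Spermatocyte markers were below 0 with 7 of 8 (median -0.16, 0 passed, 2 at an unadjusted limma p under 0.05), summed from 7368 to 7892 in transgenic and from 7951 to 8615 in wild-type testis, again with no overlap. The part of these cell types in the values of Sult1e1, Hsd3b1 and Hsd17b3 was not tested. The summed levels of Sertoli (11447 to 11809 in transgenic, 11199 to 11770 in wild-type testis), peritubular myoid and spermatid markers overlapped between the genotypes. Spermatid markers averaged 13.16 to 13.23 log2 units in transgenic and 13.16 to 13.21 in wild-type testis.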

How the data were processed

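Per the labels' protocols, total RNA of freshly dissected adult testis was labelled with biotin and hybridised to Affymetrix mouse arrays, 1 for each of 3 DREAM transgenic and 3 wild-type mice, stated to be independent biological replicates. The values deposited by the authors are log2 intensities from RMA and the affy package, per the submitters' processing notes. RMA equalises the arrays, so a shift of all transcripts cannot be seen. Without 64 Affymetrix controls, 45037 probe sets were tested. Names came from the platform annotation (34945 probe sets with 1 gene, 932 with several, 9160 with none here), updated through a RefSeq table that matched 34741.

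The genotypes were set against each other by limma 3.58.1 under R 4.3.3 (eBayes, two-sided, Benjamini-Hochberg over all probe sets, threshold 0.05), checked on simulated data. The 10 genes and all lists were chosen with earlier results of these data known. The rule named, per pathway list, up to 4 genes that passed or, with none, the 2 with the lowest p, and the 3 profiles most like Sult1e1 and Hsd3b1. Paralogues, second probe sets, markers, Hsd17b11, the lower Leydig cell genes, Ephx1, Cyp4b1 and Hao2 were named after their values were seen. Same-numbered arrays did not deviate together (correlations -0.32, -0.07 and -0.01, against -0.19 to 0.25 for other pairs), and the reported fit did not pair them. With 3 arrays a group this check cannot exclude a pairing. The number of arrays limits the precision. Alternatives, whose effects stand in the closing section, changed the dim filter (lowest 40% dropped), scaling, variance moderation, weighting, blocking, the arrays or probe set classes kept, and, once the data had been seen, added Gapdh integrity as a covariate.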

Additional observations from a re-analysis of the deposited data

How the results depend on the processing

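The differences of Sult1e1, Hsd3b1 and Hsd17b3 stayed above 0 under all 14 alternatives, from 1.85 to 2.30, 1.39 to 1.93 and 0.72 to 1.81 on the log2 scale, and both Sult1e1 and Hsd3b1 stayed past the threshold except Sult1e1 with the Gapdh covariate. Hsd17b3 crossed it with that covariate, with array weights and without wild type replicate 2, and 2 probe sets of Star and 1 of Nr5a1 crossed it with array weights. The number of probe sets past the threshold, 200 in the reported fit, was 306 with trend and robust eBayes, 4160 with array weights, 117 with the replicate block, 18 with the Gapdh covariate and 70 to 429 with 1 array left out. It was 429 without wild type replicate 2, 70 without wild type replicate 3, and 71, 75 and 73 without the transgenic replicates in their order. The array weights gave wild type replicate 3 a weight of 19.1 and their estimation did not converge. The replicate block changed no call among the 12 probe sets or the pathway genes. Of the pathway genes, 2 passed with trend and robust eBayes, 17 with array weights and 0 to 1 with 1 array left out. With the Gapdh covariate Nr0b2, Sult1c2 and Rhox5 changed sign, to -0.345, -0.0653 and 0.0713 (adjusted p = 0.607, 0.914 and 0.907), and the cause was not tested. The filter on dim probe sets removed the dimmer probe sets of Cyp11a1, which then had no value. Only RMA values were used here, so the background correction was not varied.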
